A study of Homo sapiens with 6 samples.

Results

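The genes described here are 9 genes of the TRAIL death receptor route to apoptosis and of the apoptosome: the ligand gene TNFSF10, the receptor genes TNFRSF10A, TNFRSF10B and TNFRSF10D, the adaptor gene FADD, the initiator caspase gene CASP8 and its regulator CFLAR, and APAF1 with CASP9. They were taken by name, and all 9 were among the 13117 genes of the deposited table. The samples were SNU449 cells, an established human hepatocellular carcinoma line, carrying FOXO1AAA in the doxycycline-inducible vector pInducer20. In FOXO1AAA the AKT phosphorylation sites of the transcription factor FOXO1 are replaced. The Dox group comprised 3 libraries of cells given 2 µM doxycycline hydrochloride for 48 h, and the Cont group 3 libraries of the same engineered cells without doxycycline. The genotype label was WT in both groups, and the labels do not say whether the cells were 1 clone or a pool. There was no library with doxycycline and without the construct, so effects of doxycycline and of FOXO1AAA cannot be told apart in any result. Whether replicates were separate cultures is not stated in the labels, so p-values measure the spread between these libraries, which may be technical.

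TRAIL is a membrane-bound or shed trimer of the TNF family. It binds the death receptors encoded by TNFRSF10A and TNFRSF10B, which gather the adaptor FADD and procaspase-8 into the death-inducing signalling complex, where caspase-8 is activated. The protein of CFLAR resembles caspase-8, lacks its protease activity and competes for a place in that complex, and TNFRSF10D encodes a receptor with a truncated death domain that binds TRAIL without passing on the death signal. In many epithelial cells the receptor signal is amplified through mitochondria: cytochrome c binds APAF1, which assembles into the apoptosome and activates caspase-9. TNFSF10 is a known target gene of FOXO factors in other cells.

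Promoter sequence is shown for TNFSF10, APAF1 and CASP9, the members that were higher in Dox. RefSeq (GRCh38.p14) windows of 250 bases before a transcript start were matched for 6 of the 9 genes. Printed stretches over 30 bases are the longest runs in their window without GENCODE release 29 exon bases, so other non-exon bases can be missing. They run 5′ to 3′ on the strand of the gene and are reference sequence, not sequence of the SNU449 cells. The first is chr3:172523508-172523680 (minus strand), the second lies nearer the start of TNFSF10 at chr3:172523443-172523472 (minus strand) with TATAAA in capitals, the third is chr12:98645206-98645235 (plus strand) with a forkhead-type match in capitals, and the fourth is chr1:15524890-15525040 (minus strand) with each GGGCGG in capitals (overlapping ones run together), the core of the GC box bound by SP1.
TNFSF10 upstream: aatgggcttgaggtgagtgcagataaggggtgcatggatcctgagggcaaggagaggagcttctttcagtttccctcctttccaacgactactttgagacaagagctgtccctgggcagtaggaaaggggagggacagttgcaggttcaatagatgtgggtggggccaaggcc
TNFSF10 near the start: tcctcactgacTATAAAagaatagagaagg
APAF1 near the start: ggcttggggtgTGTTTATttgcataagcgg
CASP9 upstream: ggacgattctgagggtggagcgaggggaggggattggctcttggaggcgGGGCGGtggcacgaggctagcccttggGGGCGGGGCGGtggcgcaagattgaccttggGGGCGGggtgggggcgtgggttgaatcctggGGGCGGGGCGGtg
The 7 letters GTAAACA, the core of the FOXO binding motif, were searched on both strands and were in none of the windows of these 6 genes. They were in 2.976% of the 34943 RefSeq windows of that length. A wider search, added after the sequences had been read, for GTAAACA together with the related motif ATAAACA, the related motif GTAAATA and the related motif ATAAATA on both strands gave 1 match among the 6 genes, the reverse complement of ATAAACA beginning 73 bases before the APAF1 start. The wider set was in 12.383% of all windows. That is a share of windows, and CFLAR had 4 windows, CASP8 3 and CASP9 2. A count over 6 genes therefore cannot be set directly against it. TATAAA, added in the same way and searched on the strand of the gene, began 31 bases before the TNFSF10 start, and 139 bases before 1 of 3 CASP8 starts. Of all windows, 6.82% held it, and 2.782% held it in their last 60 bases. The starts used here are RefSeq starts. GENCODE release 29 places the TNFSF10 and APAF1 matches within an exon, and the CASP8 match outside exons. The TNFSF10 window had a GC content of 49.6% and 2 CpG dinucleotides. The APAF1 window had 73.6% and 38, and the CASP9 window shown had 71.6% and 25 with 8 occurrences of GGGCGG on either strand, counting overlaps, 6 of them in the printed stretch; a second CASP9 window, from another start, had 77.6% and 29. The median over all windows was 58.0% and 11 CpG, and GGGCGG was in 42.549% of them. A match describes letters only, and a window without one says nothing of binding elsewhere.

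RNA was captured by poly(A), and the authors deposited log2 FPKM (fragments per kilobase of transcript, scaled to library size), which was returned to FPKM here. The steps between the lowest values gave a rough depth of 28.4 to 47.1 M reads per library, and the members with the fewest estimated reads were FADD in Dox, with 240.1 to 369, and CASP9 in Cont, with 261 to 402. The estimate is rough, since the reads it implies over all listed genes add up to 2.28 to 2.42 times those totals. FOXO1 itself (chromosome 13, 40469953 to 40666597) was at 2.87, 3.50 and 2.01 FPKM in Dox and 0.741, 0.776 and 0.889 FPKM in Cont (limma adjusted p = 9.84e-05), and reads of the construct and of the endogenous gene cannot be told apart in it. The 13 genes encoded by mitochondrial DNA took 14.1 ± 0.80% of the summed FPKM in Dox and 3.73 ± 0.855% in Cont (SD, n = 3), so the scaling of the other genes moves with the groups. Of 9 hepatocyte markers, 3 were listed: ALB was at 0.850 to 1.71 FPKM in Dox and 0.0941 to 0.571 FPKM in Cont, and FGB was at 6.43 to 9.98 FPKM in Dox and 135 to 191 FPKM in Cont. Of 5 mesenchymal markers, all tested, 3 were called higher (FN1, SPARC and ZEB1) and 2 lower (VIM and CDH2) on FPKM as deposited, with summed levels of 436 to 499.7 FPKM in Dox and 1056 to 1059 FPKM in Cont. Of 5 epithelial markers, 3 were listed: KRT8 and KRT18 were called lower (log2 change -1.45 and -2.43), and CDH1 was at 0.142 to 0.192 FPKM in Dox and 0.717 to 0.802 FPKM in Cont. Of 6 immune and 4 endothelial markers, 1 and 2 were listed, with summed levels of 2.25 to 2.38 and 0.528 to 0.9747 FPKM in Dox and 1.73 to 2.35 and 0.306 to 0.401 FPKM in Cont.

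The members differed between Dox and Cont in both directions. The ligand TNFSF10 and both apoptosome genes, APAF1 and CASP9, were higher in Dox, 7.37-fold, 6.01-fold and 4.002-fold in mean FPKM. The receptor genes, FADD and CFLAR were lower, and CASP8 did not pass the test. Differences were tested with limma on log2(FPKM + 1), and a gene was called at a Benjamini-Hochberg adjusted p under 0.05. Of the 9 members, all of which passed the filter on low values, 3 were called higher and 5 lower. This has to be read against the whole table: 80.4% of the 11526 tested genes were called, 37.6% higher and 42.8% lower. The share of members called is therefore near the background, and the sizes and directions below carry the description. Groups without overlap were common too: they were seen for all 9 members and for 82.1% of the tested genes. The median log2 change was -0.37 over the members and -0.06 over all tested genes. In bulk RNA, fewer cells expressing a gene and less of its RNA per cell cannot be told apart.

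**Figure D1:**
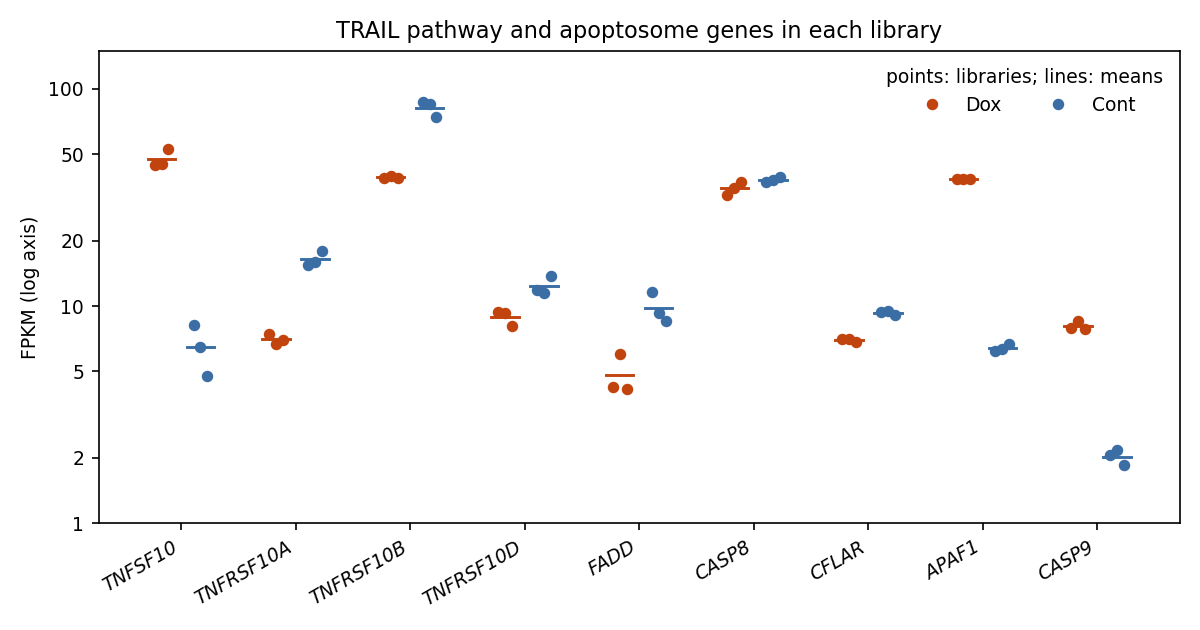
FPKM on a log axis for the 9 genes, with Dox (orange) left of Cont (blue). Points are libraries and lines are means of 3. TNFSF10 lies between 44.6 and 53.1 in Dox and between 4.74 and 8.20 in Cont, while TNFRSF10B lies between 38.7 and 39.6 in Dox and between 74.4 and 86.9 in Cont.

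TNFSF10 (ENSG00000121858.10, chromosome 3, 172505508 to 172523507, minus strand) encodes TRAIL. It was at 44.6, 45.1 and 53.1 FPKM in Dox replicates 1 to 3, against 8.20, 6.44 and 4.74 FPKM in Cont replicates 1 to 3. Every Dox library was above every Cont library, and the Cont libraries differed among themselves more than those of any other member, with a coefficient of variation of 26.7%. The means were 47.6 ± 4.75 and 6.46 ± 1.73 FPKM in Dox and Cont (SD, n = 3; log2 change 2.73, SE 0.15, limma adjusted p = 1.26e-07). Of all tested genes, 2.68% changed by as much or more in either direction. The log2 change stayed between 2.55 and 3.07, with an adjusted p under 0.05, in all 18 alternatives. None of the 50-base words of its GENCODE transcripts occurs, on either strand, in a transcript of another gene. The share that does was 51.06% for FADD, 14.121% for CFLAR, 12.389% for TNFRSF10A and 9.055% for APAF1. For the remaining members it was 0.831% to 1.743%. These shares include overlap with genes on the opposite strand. The antisense gene AP000879.1 alone gave 51.06% for FADD, and ANKS1B, on the opposite strand, gave 8.613% for APAF1.

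The receptors with a death domain were both lower, by about the same factor. TNFRSF10B (ENSG00000120889.12, chromosome 8, 23020133 to 23069179) encodes DR5, the TRAIL receptor often dominant in carcinoma cells. It was at 39.0, 39.6 and 38.7 FPKM in Dox, against 86.9, 85.1 and 74.4 FPKM in Cont. The groups lay far apart and the Dox libraries within 1 FPKM of each other (means 39.1 ± 0.460 and 82.1 ± 6.79 FPKM in Dox and Cont, SD, n = 3; log2 change -1.05, SE 0.07, limma adjusted p = 6.43e-07). TNFRSF10A (ENSG00000104689.9, chromosome 8, 23190452 to 23225126), which encodes DR4, was at 7.44, 6.68 and 6.98 FPKM in Dox, against 15.4, 15.9 and 17.9 FPKM in Cont. Its groups did not overlap either, and its mean in Dox was 0.428 times that in Cont (log2 change -1.12, SE 0.09, limma adjusted p = 1.20e-06), beside 0.476 times for TNFRSF10B. Per kilobase of transcript, TNFRSF10B stood well above TNFRSF10A in each of the 6 libraries. Transcripts on the opposite strand in GENCODE release 29 cover part of the 2951 exonic bases of TNFRSF10A. TNFRSF10A-AS1 covers 224 of them and AC100861.1 covers 266. The strand setting of the counting was not stated in the labels.

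TNFRSF10D (ENSG00000173530.5, chromosome 8, 23135588 to 23164030), the decoy receptor gene, lies between these death receptor genes, and the stretch from TNFRSF10B to TNFRSF10A spans 205.0 kb. It was at 9.41, 9.28 and 8.08 FPKM in Dox, against 11.8, 11.5 and 13.7 FPKM in Cont. The groups did not overlap, but they lay closer than those of the death receptors (means 8.92 ± 0.731 and 12.3 ± 1.17 FPKM in Dox and Cont, SD, n = 3; log2 change -0.43, SE 0.10, limma adjusted p = 0.00221). The call ended in TPM without the mitochondrially encoded genes (log2 change -0.18, limma adjusted p = 0.166), whereas TNFRSF10A and TNFRSF10B remained past the threshold there, at -0.89 and -0.78.

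The decoy and the death receptor can also be compared within a library, where a common scaling factor cancels. The ratio of TNFRSF10D to TNFRSF10B was 0.241, 0.234 and 0.209 in Dox, against 0.136, 0.136 and 0.184 in Cont. Each Dox ratio was above each Cont ratio, and the mean log2 ratio was 0.60 higher in Dox, a 1.52-fold difference. An exact two-sided permutation test gave p = 0.1 (0.1 after adjustment over 3 ratios), which is the smallest value that 3 against 3 libraries allow. The difference was 0.75 without Cont replicate 3, the library with the highest Cont ratio.

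FADD (ENSG00000168040.4, chromosome 11, 70203163 to 70207390), the adaptor that links the receptors to procaspase-8, was at 4.26, 5.996 and 4.16 FPKM in Dox, against 11.7, 9.28 and 8.50 FPKM in Cont. The groups did not overlap, though Dox replicate 2 and Cont replicate 1 stood above the rest of their groups. The means were 4.804 ± 1.03 and 9.81 ± 1.65 FPKM in Dox and Cont (SD, n = 3; log2 change -0.90, SE 0.15, limma adjusted p = 0.000255). An antisense gene, AP000879.1, covers 1011 of the 1841 exonic bases of FADD, so without strand its reads and those of FADD cannot be told apart; it is not analysed here.

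CASP8 (ENSG00000064012.21, chromosome 2, 201233443 to 201287711), the initiator caspase of the receptor complex, was at 32.4, 34.8 and 37.3 FPKM in Dox, against 37.3, 38.2 and 39.3 FPKM in Cont. The highest Dox and the lowest Cont value were nearly equal, with the Dox value the lower. The log2 change was -0.13 (95% interval -0.30 to 0.03, limma adjusted p = 0.115). It turned to 0.01 under quantile normalization and to 0.14 in TPM without the mitochondrially encoded genes (limma adjusted p = 0.917 and 0.113), and it passed the test without Dox replicate 3 (log2 change -0.18, limma adjusted p = 0.0392). No direction can be given for CASP8 from these values.

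CFLAR (ENSG00000003402.19, chromosome 2, 201116104 to 201176687), which encodes the caspase-8 inhibitor FLIP, was at 7.02, 7.02 and 6.85 FPKM in Dox, against 9.42, 9.44 and 9.06 FPKM in Cont. The libraries of each group were close together, and the groups were clearly separate. The mean in Dox was 0.748 times that in Cont (log2 change -0.37, SE 0.08, limma adjusted p = 0.00136), but the call ended in TPM without the mitochondrially encoded genes (log2 change -0.13, limma adjusted p = 0.175). Of the 22529 exonic bases of CFLAR, 1488 are covered by IMPDH1P10 and 777 by CFLAR-AS1, both on the opposite strand. AC007283.1, on the same strand, covers 445. Their part in the CFLAR values was not tested. CFLAR has 25 transcripts in GENCODE release 29, and gene-level values do not separate its long and short protein forms. Its ratio to CASP8 within a library was 0.217, 0.202 and 0.184 in Dox, against 0.253, 0.247 and 0.231 in Cont. Every Dox ratio was below every Cont ratio (difference of mean log2 ratio -0.28, exact two-sided permutation p = 0.1, adjusted 0.1). The difference ran from -0.34 to -0.22 when any 1 library was left out, and was -0.34 without Dox replicate 1.

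CASP10, an initiator caspase gene that is not among the 9, lies between CFLAR and CASP8, 6.2 kb from CFLAR and 4.0 kb from CASP8. It was at 3.87, 4.18 and 3.88 FPKM in Dox, against 1.87, 1.44 and 2.01 FPKM in Cont, a 2.24-fold higher mean in Dox (log2 change 0.85, SE 0.11, limma adjusted p = 5.26e-05). These 3 neighbouring genes of the receptor complex thus stood at log2 changes of -0.37, 0.85 and -0.13 in chromosomal order.

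APAF1 (ENSG00000120868.13, chromosome 12, 98645141 to 98735433), the scaffold of the apoptosome, showed the tightest separation of the members. It was at 38.5, 38.4 and 38.5 FPKM in Dox, against 6.18, 6.34 and 6.67 FPKM in Cont. The Dox libraries differed from each other by less than 1% and lay far above the Cont libraries (means 38.5 ± 0.0555 and 6.40 ± 0.248 FPKM in Dox and Cont, SD, n = 3; log2 change 2.42, SE 0.07, limma adjusted p = 2.50e-09). Over the 18 alternatives the log2 change was 2.39 to 2.75. The gene ANKS1B, on the opposite strand, covers 750 of the 7908 exonic bases of APAF1; named after its values were seen, it was also higher, at 9.03, 7.52 and 10.4 FPKM in Dox, against 3.51, 3.91 and 4.37 FPKM in Cont (limma adjusted p = 3.19e-05). Its part in the APAF1 values was not tested.

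CASP9 (ENSG00000132906.17, chromosome 1, 15490832 to 15526534), the caspase activated on the apoptosome, had the lowest level of the members in Cont. It was at 7.91, 8.55 and 7.85 FPKM in Dox, against 2.06, 2.17 and 1.85 FPKM in Cont. The groups did not overlap, and the Dox mean was 4.002 times the Cont mean (8.10 ± 0.385 and 2.02 ± 0.163 FPKM in Dox and Cont, SD, n = 3; log2 change 1.59, SE 0.09, limma adjusted p = 1.61e-07). On the deposited log2 scale, without a pseudocount, the change was 2.00. The ratio of APAF1 to CASP9 was 4.87, 4.49 and 4.90 in Dox, against 3.01, 2.92 and 3.61 in Cont. APAF1 thus exceeded CASP9 per kilobase in every library, and by more in Dox (difference of mean log2 ratio 0.58, exact two-sided permutation p = 0.1, adjusted 0.1; 0.53 to 0.68 when any 1 library was left out).

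**Figure D2:**
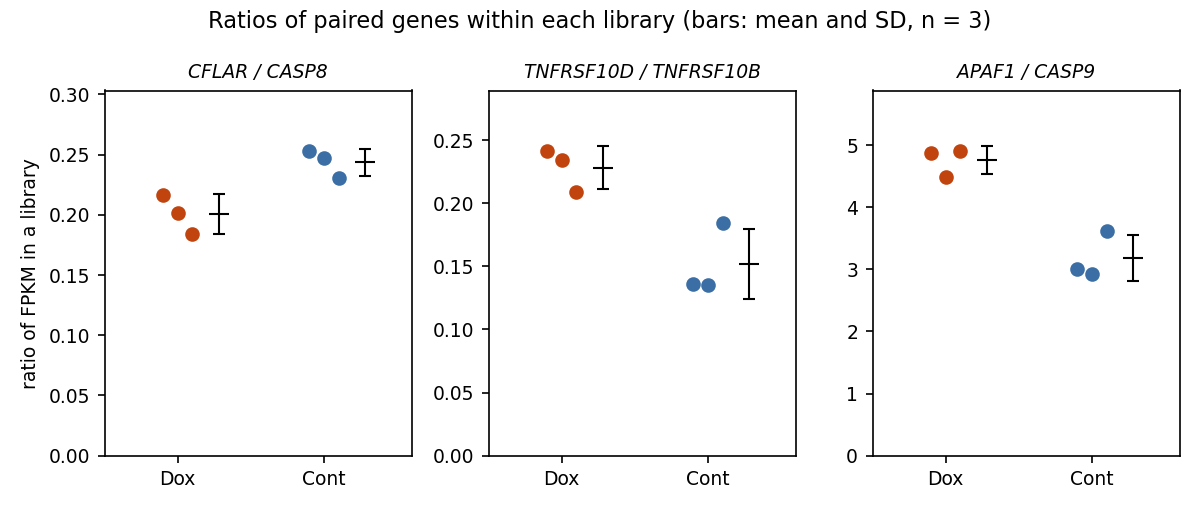
Ratios of FPKM within each library for 3 pairs of genes, Dox left of Cont; points are libraries, and bars give the mean and SD of 3. For TNFRSF10D to TNFRSF10B the Dox ratios lie between 0.209 and 0.241 and the Cont ratios between 0.136 and 0.184, with no overlap in any of the 3 panels.

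The order of the members by level differed between the groups. Ranks between genes depend on the length by which each was divided, which is not known here. The longest transcript has 14672 bases for CFLAR and 2930 for CASP8. In Dox, TNFSF10 was at rank 1, followed by TNFRSF10B, APAF1 and CASP8, whose lowest value in any library was 32.4 FPKM, and then by a gap to TNFRSF10D, CASP9, TNFRSF10A, CFLAR and FADD. The values of TNFRSF10D and CASP9 overlapped, as did those of TNFRSF10A and CFLAR. In Cont, TNFRSF10B was at rank 1, before CASP8, TNFRSF10A, TNFRSF10D, FADD and CFLAR, and TNFSF10, APAF1 and CASP9 were at ranks 7, 8 and 9. There the values of TNFRSF10D overlapped those of FADD, those of FADD overlapped those of CFLAR, and those of TNFSF10 overlapped those of APAF1. The 3 genes at the bottom in Cont were thus the 3 that were called higher.

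**Figure D3:**
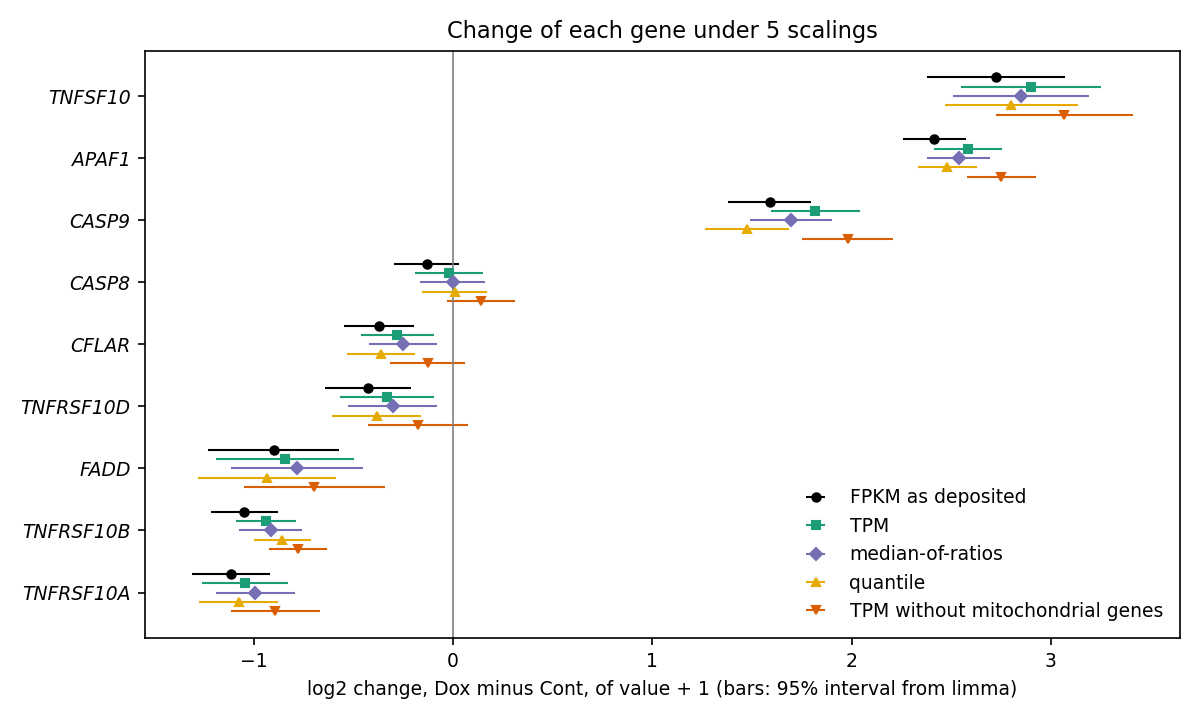
Log2 change (Dox minus Cont, of value + 1) of each member with its 95% interval from limma, under 5 scalings of the libraries. TNFSF10, APAF1 and CASP9 stay above 0 and TNFRSF10A, TNFRSF10B and FADD below it, while the intervals of CFLAR and TNFRSF10D reach 0 in TPM without mitochondrially encoded genes and the estimate of CASP8 lies on both sides, from -0.13 to 0.14.

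That scaling moved the median of all tested genes to 0.22 in log2, against -0.06 for FPKM as deposited. Of the 5 scalings, it was the 1 in which the calls of CFLAR and TNFRSF10D ended, though their estimates stayed below 0. The estimate of CASP8 changed sign between scalings, and the other 6 members kept their direction and their call in all 5.

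Other genes of the route were described from 6 lists, whose medians stand beside -0.06 for all tested genes. The counts called in each list stand beside 37.6% called higher and 42.8% called lower among all tested genes. Of 7 listed genes for other death ligands and receptors (median log2 change -1.03), 1 was called higher and 4 lower, but 3 higher and 4 lower in TPM without mitochondrially encoded genes. TNFRSF21, the gene of DR6, was at 125 ± 4.77 FPKM in Dox and 43.0 ± 5.75 FPKM in Cont (SD, n = 3; log2 change 1.53, limma adjusted p = 2.38e-07). The TNF receptor gene TNFRSF1A was at 17.9 ± 3.11 and 66.8 ± 5.97 FPKM in Dox and Cont (log2 change -1.85, limma adjusted p = 3.20e-07), and TNFRSF12A, which encodes the TWEAK receptor, at 34.9 ± 1.86 and 278 ± 19.9 FPKM in Dox and Cont (log2 change -2.96). LTBR, the lymphotoxin beta receptor gene, was also lower (log2 change -1.29). So was FAS, the other classical death receptor gene, named here after its values were seen, with 4.09 ± 0.767 and 9.32 ± 0.428 FPKM in Dox and Cont (log2 change -1.03, limma adjusted p = 1.81e-05). TNFRSF10C and the genes of the ligands TNF and FASLG are not analysed here.

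Of 13 tested adaptors and regulators of the receptor complex (median log2 change -0.14), 4 were called higher and 6 lower, or 6 and 5 in TPM without mitochondrially encoded genes. TRADD, the adaptor of the TNF receptor, was at 43.9 ± 1.48 FPKM in Dox and 13.2 ± 0.319 FPKM in Cont (SD, n = 3; log2 change 1.66, limma adjusted p = 1.54e-08). MARCHF8, a membrane ubiquitin ligase reported to act on TNFRSF10A, was at 43.8 ± 0.268 and 10.7 ± 0.207 FPKM in Dox and Cont (log2 change 1.94). TRAF2, which brings ubiquitin ligases to TNF receptor complexes, was lower (log2 change -1.57). GALNT14, an O-glycosylation enzyme known to modify TRAIL receptors, was at 5.47 ± 0.486 and 37.0 ± 6.04 FPKM in Dox and Cont (log2 change -2.55, limma adjusted p = 4.11e-08). The kinase gene RIPK1, named after its values were seen, was higher (log2 change 1.29).

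Of 6 listed caspase genes outside the 9 (median log2 change -0.35), CASP10 was called higher and 4 lower, but 2 were higher and 1 lower in TPM without mitochondrially encoded genes. CASP2 was at 7.94 ± 1.03 FPKM in Dox and 22.6 ± 1.27 FPKM in Cont (SD, n = 3; log2 change -1.41, limma adjusted p = 5.68e-07), and its call held in that scaling. CASP6 was at 15.6 ± 1.198 and 20.2 ± 0.892 FPKM in Dox and Cont (log2 change -0.35, limma adjusted p = 0.00267). Without the mitochondrially encoded genes its log2 change was -0.09, and it did not pass (limma adjusted p = 0.340). With median-of-ratios scaling it was -0.22.

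Among 8 tested IAP genes (inhibitors of apoptosis) and IAP antagonists (median log2 change 0.14), 2 were called higher and 2 lower, and the number called higher was 4 to 6 under the other scalings. BIRC3, the gene of cIAP2, was at 10.8 ± 2.51 FPKM in Dox and 41.1 ± 4.42 FPKM in Cont (SD, n = 3; log2 change -1.85, limma adjusted p = 1.82e-06). BIRC5, the survivin gene, was at 37.9 ± 5.40 and 139 ± 9.89 FPKM in Dox and Cont (log2 change -1.86), and BIRC6 was higher (log2 change 1.22). SEPTIN4, one of whose products antagonises XIAP, was at 5.17 ± 0.499 and 0.805 ± 0.0111 FPKM in Dox and Cont (log2 change 1.77, or 2.68 on the deposited log2 scale). XIAP, the direct inhibitor of caspase-9, named after its values were seen, was at 277 ± 4.08 and 290 ± 5.77 FPKM in Dox and Cont (limma adjusted p = 0.336), and it was called higher under quantile normalization (log2 change 0.23) and in TPM with the mitochondrially encoded genes left out (0.22).

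All 6 genes of the mitochondrial link and of apoptosome regulation (median log2 change -1.82) were called lower, under every scaling tried. On FPKM as deposited, 42.8% of all tested genes were called lower. BID, which carries the caspase-8 signal to mitochondria, was at 7.80 ± 0.316 FPKM in Dox and 23.3 ± 2.64 FPKM in Cont (SD, n = 3; log2 change -1.46, limma adjusted p = 3.29e-07). PTMA, the prothymosin gene, whose protein restrains apoptosome assembly, had a log2 change of -2.26. ANP32A and CSE1L, whose proteins are reported to promote apoptosome activity, had log2 changes of -2.21 and -2.17. CYCS, the cytochrome c gene, named after its values were seen, was at 38.2 ± 2.34 and 78.2 ± 10.0 FPKM in Dox and Cont (log2 change -1.01, limma adjusted p = 6.26e-06). APAF1 and CASP9 thus moved opposite to the cytochrome c gene and to these regulators of the same complex.

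Of 8 caspase substrates (median log2 change 0.08), 4 were called higher and 2 lower, with 1 to 2 lower under the other scalings. SPTAN1, a spectrin, was at 149 ± 7.27 FPKM in Dox and 52.8 ± 11.5 FPKM in Cont (SD, n = 3; log2 change 1.498, limma adjusted p = 2.43e-06). DFFA, the inhibitor of the apoptotic DNase, was at 6.20 ± 0.279 and 16.97 ± 0.634 FPKM in Dox and Cont (log2 change -1.32). ROCK1 and PAK2, kinases activated by caspase cleavage, had log2 changes of 0.30 and 0.25, and of 0.58 and 0.53 in TPM without mitochondrially encoded genes. For PAK2 it was also 0.41 under quantile normalization and 0.38 with median-of-ratios scaling.

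**Figure D4:**
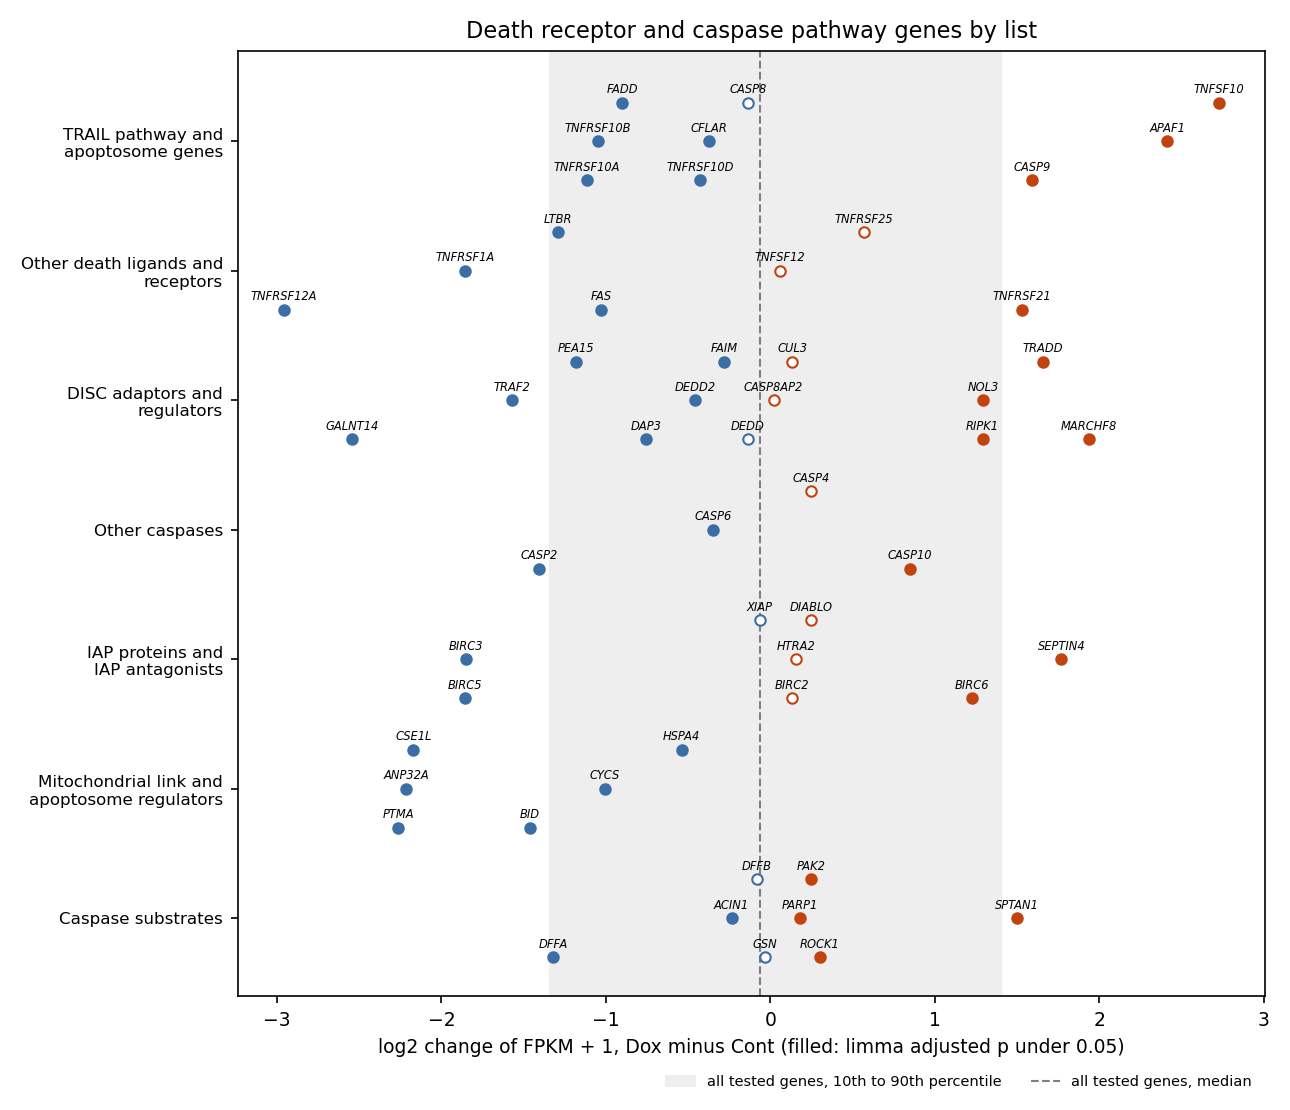
Log2 change of FPKM + 1 (Dox minus Cont) for tested genes, by list. Orange is above 0 and blue below, filled points passed the limma test, and the grey band and dashed line give the 10th to 90th percentile and the median of all 11526 tested genes. TNFSF10, APAF1 and CASP9 lie right of the band, and all 6 genes of the mitochondrial link lie left of the median.

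The tested genes closest to TNFSF10 in profile, by Euclidean distance between log2(FPKM + 1) values centred over the 6 libraries, were MEIS1, DUSP6 and LIMS2, at 0.265, 0.342 and 0.344, where the median gene was at 3.47. MEIS1 was at 10.2 ± 1.34 FPKM in Dox and 0.838 ± 0.295 FPKM in Cont (SD, n = 3). Those closest to APAF1 were GMCL1, PLOD2 and OGT, at 0.0909, 0.101 and 0.103, where the median gene was at 3.05. OGT was at 229.9 ± 8.98 FPKM in Dox and 41.2 ± 1.68 FPKM in Cont (SD, n = 3).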

How the data were processed

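RNA-seq of 6 libraries, 3 Dox and 3 Cont, was analysed. The authors deposited 1 table of log2 FPKM with gene symbols. Repeated lowest values show that a small constant had been added first. GRCh38 and FastQC 0.11.7 come from the submitters' processing notes; the aligner, counter, annotation and gene filter are not given in the sources used here. The description of Cont replicate 1 names the column of Cont replicate 2, and columns were matched by title. FPKM was taken as 2 to the power of the deposited value. The design had assumed linear FPKM, and the planned test was kept.

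A gene was kept when 3 or more libraries reached FPKM 1 (11526 kept, 1591 not). On log2(FPKM + 1), which understates changes of low genes, limma (3.58.1; R 4.3.3) was fitted with a trended prior variance, and its two-sided p-values were adjusted by Benjamini-Hochberg over all kept genes. The script was tested on simulated data with few changed genes and no shift in scaling between the groups. That test therefore does not cover the scaling of these libraries. Ratios were tested by exact permutation (scipy 1.17.1). The members and lists were chosen with earlier results of these data known. Genes of the other lists were named by size of change, up to 4 per list, among those past the threshold whose groups did not overlap. Coordinates, exon overlaps and shared 50-base words come from GENCODE release 29. Depth was estimated from steps between the lowest values of 307 genes with a repeated minimum, and covers counting only. Alternatives were other pseudocounts, filters, scalings, moderation, the deposited log2 values, a replicate block and leaving out each library. Some genes of the lists are counted but not reported here by name.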

Additional observations from a re-analysis of the deposited data

How the results depend on the processing

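Of the 9 members, 8 passed the test in the planned analysis and in 16 of the 18 alternatives. In TPM without mitochondrially encoded genes 6 passed and the number lower in Dox was 3, in place of 5. Leaving out any 1 library gave 8 or 9 members past the threshold, 3 higher and 5 or 6 lower, and 8319 to 9118 genes in all (3589 to 4310 higher, 4539 to 4860 lower). The change of CASP8 reversed to 0.00854 by quantiles and to 0.14 in TPM leaving out mitochondrially encoded genes, and that of XIAP, not past the threshold as planned, to 0.0508 in TPM, 0.0696 by median of ratios, 0.233 by quantiles and 0.215 when mitochondrially encoded genes were left out of TPM. The higher share of calls was 46.7% as planned, 52.8% in TPM, 52.7% by median of ratios and 60.2% in TPM leaving out mitochondrially encoded genes. List counts moved over 1.5 times in few settings beside those given with the lists: other death ligands and receptors had 2 higher, in place of 1, with median-of-ratios scaling, with the replicate block and without Cont replicate 3; other caspases had 0 higher with the filter at FPKM 5 and 2 with median-of-ratios scaling; IAP genes had 4 higher with no filter and 1, in place of 2, with the filter at FPKM 5 and without Dox replicate 1 or 2; caspase substrates had 1 lower, in place of 2, in TPM, with median-of-ratios scaling, without the trend, and without Cont replicate 2 or 3 or Dox replicate 1 or 2. The causes were not tested. The ratios were -0.34 to -0.22 (CFLAR over CASP8), 0.53 to 0.75 (TNFRSF10D over TNFRSF10B) and 0.53 to 0.68 (APAF1 over CASP9) without any 1 library. Correlations of deviations between same-numbered Dox and Cont libraries were 0.04, -0.0048 and 0.08. Between differently numbered ones they ran from -0.0932 to 0.0924. With 3 same-numbered pairs, these values cannot decide whether such libraries shared a culture or batch. With the replicate block 9272 genes passed, against 9265 without it, and the same number of members, 8. Depth limits the members least certain in reads, FADD and the Cont values of CASP9 and TNFSF10.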
